A study of Mus musculus with 462 samples.

Results

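The linc1509 promoter deletion clones are 7 lines of mouse embryonic stem cells in which the promoter of linc1509, a long noncoding RNA locus on chromosome 2, was deleted. They were chosen by their label (linc1509-PromoterDeletion with the date label 150126) and are 7 of the 462 samples of the series, of which 439 have allele counts of RNA. The 77 lines they were set against are the clones labelled Control with the same date label and without the mark S1. Every clone, Control clones included, derives from the line F1 2-1, a hybrid of the 129 and Castaneus strains, and was grown in serum-free 2i/LIF medium, in which embryonic stem cells self-renew. The cells are labelled female, while the growth protocol speaks of male cells. Each sample is 1 clone, and the labels name neither the edited allele of a clone, nor the extent of the deletion, nor which of the 2 count columns belongs to which strain.

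The series asks, by a cis-trans test, whether a lncRNA locus acts on the genes beside it. A long noncoding RNA locus can act through its transcript, through the act of transcription or through DNA elements in its promoter. In a hybrid cell the parental chromosomes differ in sequence, so a change limited to the edited chromosome can be told from a change on both. A change on both chromosomes can follow from an effect elsewhere in the cell, and a clone with both copies deleted gives no such contrast.

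Polyadenylated RNA was measured after hybrid selection, which enriches libraries for chosen transcripts with probes, so that only the captured rows were read. The files list 692 transcripts with 1 count per allele, of which 691 rows were used. The deletion clones held from 998612 to 1694456 allele-assigned counts and the Control clones from 130659 to 1957286. Levels are given as CPM, that is allele-assigned counts scaled to 1000000 per library, summed over both alleles unless an allele is named. Differences were tested with edgeR's quasi-likelihood F test over the 474 rows with a mean count of at least 10, with Benjamini-Hochberg adjustment and a threshold of 0.05. CPM values of different rows depend on transcript length and on capture and were not compared with each other.

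The transcript of the edited locus was lost from both alleles in 5 of the 7 clones and from 1 allele in the other two. The series describes heterozygous modifications, and the labels do not give the zygosity of these clones. linc1509 (mm9, chr2:104399302-104411322) had 0, 1.18, 2.61, 4.10 and 2.95 CPM in clones 1, 3, 4, 5 and 7, from 0 to 6 counts a library. In clones 2 and 6 it had 244.9 and 260.5 CPM. In the 77 Control clones it ran from 608.5 to 1554.6 CPM with a median of 1009.8, so that all 7 deletion clones lay below all Control clones. The count of 0 in clone 1 allows up to 3.004 CPM, the worth of 3 counts in that library, which covers counting error only. The log2 fold change was -3.89 ± 0.43 (SE), an average over clones of unlike kind, with an adjusted p of 1.04e-11 in edgeR. In RNA of a whole clone, fewer cells with the transcript and less of it per cell cannot be told apart. DESeq2 gave -1.87 for linc1509 with its replacement of outlying counts and -3.87 without it.

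The retained copies of linc1509 lay on opposite parental chromosomes. Clone 2 had 4 counts in the first allele column and 241 in the second. Clone 6 had 356 counts in the first and 2 in the second. Per allele, the kept copy of clone 2 gave 240.9 CPM, below the range of that allele in Control clones (260.3 to 878.9 CPM). The kept copy of clone 6 gave 259.1 CPM, within the Control range of its allele (221.95 to 680.0 CPM). Relative to the Control median of the same allele these are 40.7% in clone 2 and 61.4% in clone 6. The plot of linc1509 by allele sets these values side by side. Together the 2 clones form a reciprocal pair, with less linc1509 on 1 parental chromosome in clone 2 and on the other in clone 6.

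**Figure D1:**
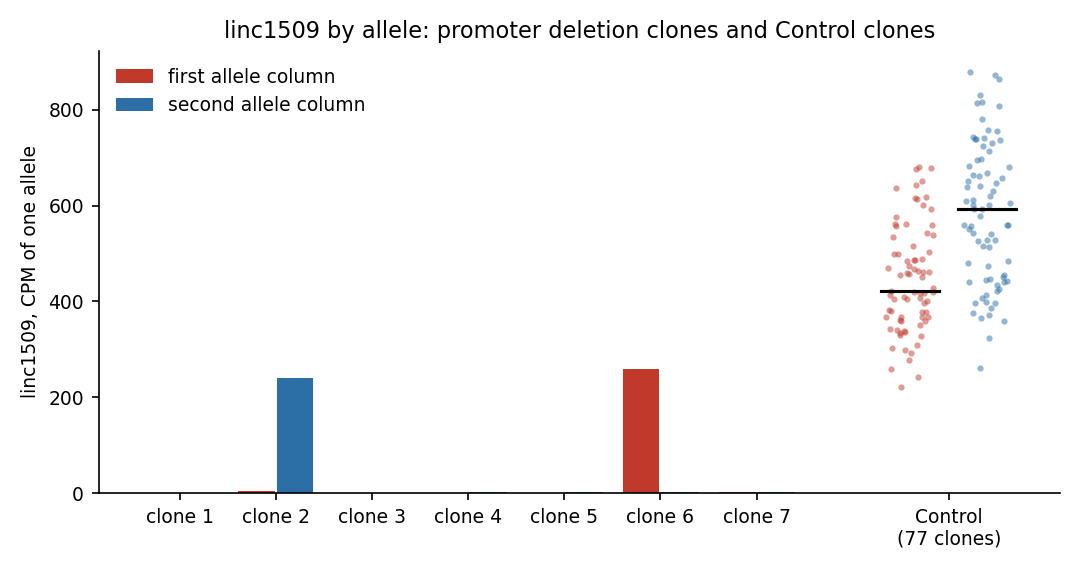
linc1509 in CPM of each allele (vertical axis) in the 7 deletion clones (bars, 1 per allele column) and in the 77 Control clones (points, with the median of each allele as a black line). Clones 2 and 6 keep 1 allele each, at 240.9 and 259.1 CPM on opposite columns, and the other 5 clones are near 0 on both.

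linc1509 lies between Hipk3 and Cstf3, and 23 captured rows lie within 1 Mb of it. Hipk3, a nuclear serine/threonine kinase gene, lies 64.7 kb to one side, and Cstf3, which encodes a subunit of the cleavage stimulation factor of mRNA 3′ end formation, lies 19.3 kb to the other. RefSeq's promoter table holds Cstf3, the nearest gene in the capture, and its promoter sequence is shown as that of a neighbour. It is not the labelled target of the deletion, and the linc1509 promoter was not in the sequences at hand. The Cstf3 promoter is given for GRCm38.p6 at chr2:104590234-104590533 on the plus strand, 250 bases before to 50 after the start, with CG dinucleotides in capitals.
Cstf3 promoter: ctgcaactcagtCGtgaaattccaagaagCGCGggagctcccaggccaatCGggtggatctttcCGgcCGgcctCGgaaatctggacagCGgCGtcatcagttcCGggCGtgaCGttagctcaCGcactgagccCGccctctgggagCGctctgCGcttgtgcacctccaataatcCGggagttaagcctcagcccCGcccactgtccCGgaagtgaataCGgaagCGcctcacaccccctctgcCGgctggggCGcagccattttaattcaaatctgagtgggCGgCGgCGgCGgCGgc
The window holds 28 CG dinucleotides at 63.3% GC, against medians of 7 and 52.7% over 32851 RefSeq promoters of the same length, and 14.2% of those hold as many.

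Near linc1509 itself no neighbour passed the test, and of the rows within 1 Mb 3 did. Of the 23 rows 18 had enough counts to test, with Lmo2 and Nat10 lower and Fbxo3 higher in deletion clones. Over all rows 60 of 474 passed, which is 12.7%, 26 of them higher and 34 lower, so 3 of 18 is close to the share anywhere in the capture. The median log2 fold change was -0.06 over the 18 rows and -0.04 over all 474. Within 200 kb 0 of 6 rows passed in edgeR and 0 in DESeq2, while 2 of the 6, D430041D05Rik and Depdc7, had an unadjusted p under 0.05 in edgeR. Under other references some of the 6 did pass. D430041D05Rik passed with Control clones summed by plate (0.34, adjusted p 0.0231 in edgeR). Hipk3, Tcp11l1 and Depdc7 passed against clones of other promoter deletions, as given below.

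Lmo2 had the second smallest p of all 474 rows, after linc1509. It encodes a LIM-only protein that bridges DNA-binding partners in the transcription complexes of blood and endothelial cells, and it lies 577 kb from linc1509 (mm9, chr2:103798152-103822035). Its levels in clones 1 to 7 were 17.02, 27.99, 31.9, 26.1, 21.9, 29.1 and 34.7 CPM. The Control clones ran from 24.2 to 311.8 CPM with a median of 86.6. All 7 deletion clones lay below the Control median, 2 lay below every Control clone, and 3 Control clones lay below the highest deletion clone. The log2 fold change was -1.79 ± 0.30 (SE; adjusted p 1.34e-05 in edgeR), a level 3.46-fold lower. The libraries of the deletion clones held only 17 to 54 counts of Lmo2. Clones 2 and 6, which keep 1 copy of linc1509, had Lmo2 levels inside the range of the 5 clones without it.

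Fbxo3, the next gene along, moved the other way. It encodes an F-box protein, a substrate receptor of a ubiquitin ligase, and lies 495.9 kb from linc1509 (mm9, chr2:103867956-103903394). Clones 1 to 7 had 1159.6, 1070.7, 1331.4, 1186.5, 1191.1, 1204.4 and 1203.6 CPM. The Control clones ran from 354.1 to 1173.3 CPM with a median of 787.4. Of the deletion clones 5 lay above every Control clone, and 2 Control clones lay above the lowest of them. The log2 fold change was 0.52 ± 0.12 (SE; adjusted p 0.0020 in edgeR), the 8th smallest p.

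Nat10, an RNA acetyltransferase gene 797.9 kb away, differed little. It averaged 5858 ± 380 CPM in the 7 deletion clones and 6248 ± 695 CPM in the 77 Control clones (SD), with a log2 fold change of -0.19 ± 0.07 (SE; adjusted p 0.0483 in edgeR). Only 4 of the 7 clones lay below the Control median of 6095 CPM. Leaving out any of the 7 clones ended the call (adjusted p 0.0613 to 0.0973), as did scaling by library size alone (log2 fold change -0.09, adjusted p 0.337 in edgeR).

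**Figure D2:**
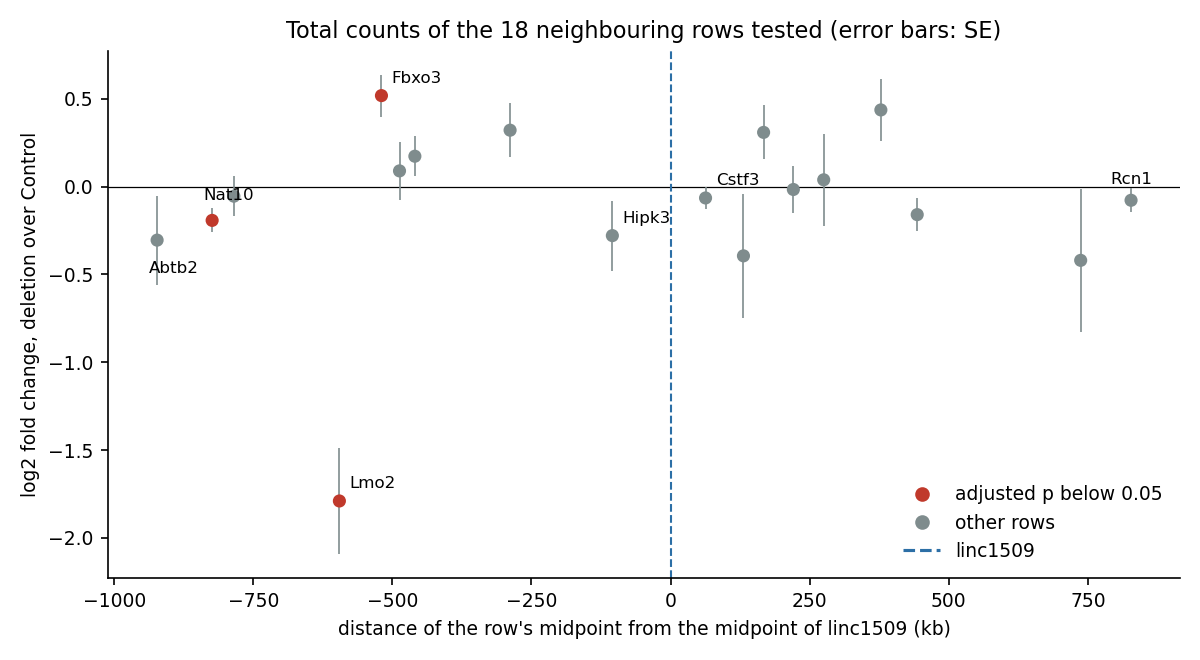
Log2 fold change of total counts, deletion over Control (vertical axis; error bars are SE), against the distance of each row's midpoint from that of linc1509 in kb, for the 18 neighbouring rows tested. Lmo2 at -1.79 stands apart, and Fbxo3 at 0.52 is the highest of the 18 but close to Ccdc73 at 0.44. Hipk3 and Cstf3 beside the locus lie at -0.28 and -0.07.

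The flanking genes and the rest of the neighbourhood did not pass in the fit against the 77 Control clones. Cstf3 averaged 1320 ± 91.3 CPM in deletion clones and 1292 ± 156.3 CPM in Control clones (SD, n = 7 and 77), a log2 fold change of -0.07 ± 0.06. Hipk3 averaged 204.45 ± 32.5 CPM in deletion clones and 233.0 ± 81.6 CPM in Control clones, with -0.28 ± 0.20. The SE of Cstf3 is the narrower, and both leave room for small changes.

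On the side of Hipk3, the complement inhibitors Cd59a and Cd59b gave 0.17 and 0.09, and counts between these close paralogs may be shared. D430041D05Rik gave 0.32 ± 0.16, and Abtb2, a BTB domain gene, gave -0.30 ± 0.25. By column Abtb2 gave -1.08 in the first (adjusted p 0.0514 in edgeR) and 0.03 in the second. Pooled over clones, the first column held 24.1% of its allele counts in deletion clones and 42.04% in Control clones. By clone, the log2 ratio of the first column over the second ran from -2.31 to -1.10 in the 7 deletion clones. In the 76 Control clones with enough counts it ran from -2.32 to 0.37 with a median of -0.81. So 0 of the 7 lay outside the Control range. Caprin1, an RNA-binding protein of stress granules, gave -0.05 ± 0.11. All 7 clones were nevertheless below its Control median, with 6908 to 7229 CPM against a median of 7319 CPM.

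On the side of Cstf3, Ccdc73 came closest to the threshold among the rows that missed it, at 0.44 ± 0.18 (adjusted p 0.0784 in edgeR). It had 253.0 to 321.9 CPM in deletion clones and a median of 190.4 CPM in Control clones. Its row overlaps that of Eif3m, a subunit of a translation initiation factor, which gave -0.16 ± 0.09. Depdc7 gave 0.31, Tcp11l1 -0.39, Qser1 -0.02 and Prrg4, a transmembrane Gla protein, 0.04. The distal 0610012H03Rik and Rcn1, a calcium-binding protein of the endoplasmic reticulum, gave -0.42 and -0.08.

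The rows too low to test included 4930547E08Rik, A930018P22Rik, AI314831 and Wt1. Wt1, the zinc finger factor of kidney and gonad development, had 2.36 to 8.01 CPM in deletion clones and from 0 to 30.6 CPM in Control clones.

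The clones' position among Control plates was examined because Control clones varied by plate. The 77 Control clones carry 25 plate labels with 3 to 5 clones each, and the labels give no plate for the deletion clones. The median SD of log2(CPM + 1) over the 474 rows was 0.15 among deletion clones, 0.42 among Control clones and 0.15 within a Control plate. The SD was lower among deletion clones in 469 of 474 rows (98.9%). If the 7 clones share a plate or a culture, its effect and that of the deletion cannot be told apart, and the p-values of total counts, which take clones as independent, are then too small.

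Lmo2 averaged 26.96 CPM in deletion clones, below the means of all 25 Control plates, which ran from 37.6 to 230.75 CPM. Fbxo3 averaged 1192.5 CPM in deletion clones, above all 25 plate means (407.3 to 1003.4 CPM). Nat10 in deletion clones was below 17 of the plate means and above 8. Lying beyond all 25 plate means was not particular to Lmo2 and Fbxo3. Of the called rows outside the window named below, Krt18, Wscd2, Nrbp2 and Parp10 lay above all 25 and Tnni1 below all 25. Slc27a5, Selplg, Fgf18, Phf15, Tlx3, Tigd5 and Akp3 lay among the plate means. These rows were picked as large calls, and the share of all tested rows beyond the 25 plate means was not computed. How unusual the place of Lmo2 and Fbxo3 is can therefore not be judged. With the 7 clones summed to 1 library against 25 plate sums, linc1509 was called as the only one of 518 rows. Lmo2 then gave -1.75 and Fbxo3 0.55, both with an adjusted p of 0.994 in edgeR, and an unadjusted p of 0.0221 and 0.0720. In that fit 7 rows had an unadjusted p under 0.05.

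**Figure D3:**
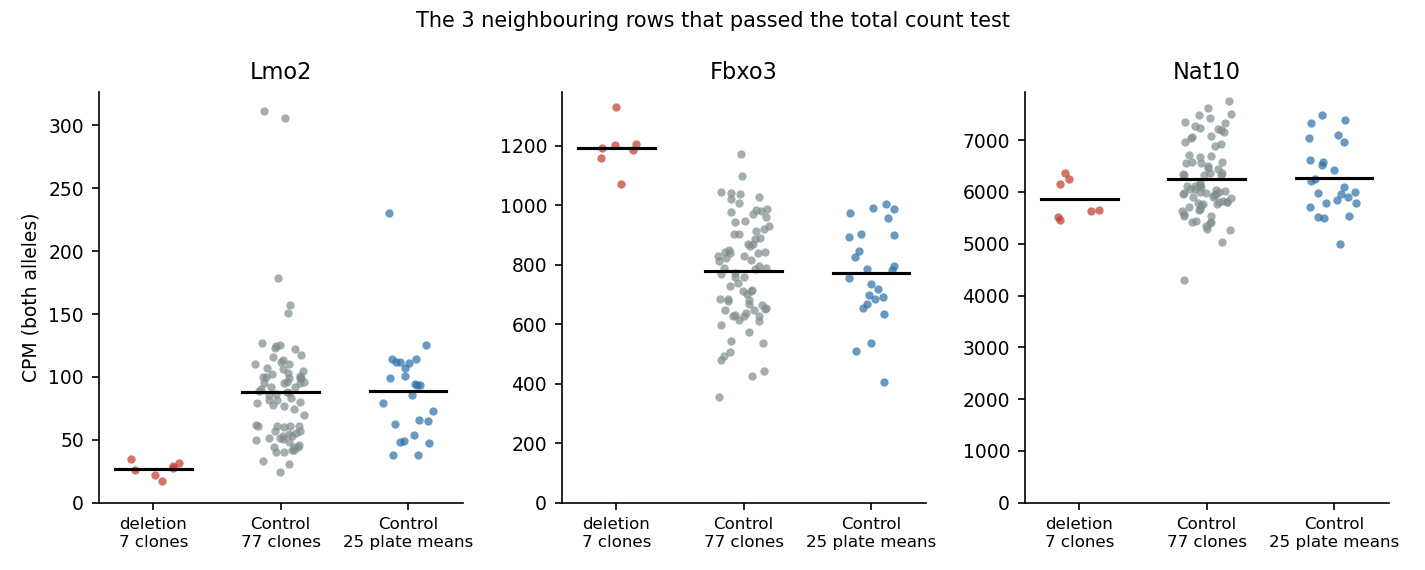
CPM over both alleles (vertical axis, from 0) of Lmo2, Fbxo3 and Nat10 in the 7 deletion clones, in the 77 Control clones and as means of the 25 Control plates; black lines are means. Deletion clones sit at 17.02 to 34.7 CPM for Lmo2 and at 1070.7 to 1331.4 CPM for Fbxo3, while those of Nat10 lie within the Control range.

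Clones of other promoter deletions offer a second reference, since they were edited and cloned as well. The 62 clones of 8 groups of the same date whose target is not on chromosome 2 were used. They are labelled as promoter deletions of Crlf3, Gpr19, Rcc1, Slc30a9, Snhg3, linc1423, linc1536 and linc2025. The fit took them as independent, with no term for group, although levels differed between groups. Group means ran from 64.7 to 110.5 CPM for Lmo2 and from 522.9 to 831.55 CPM for Fbxo3. Where clones of a group are alike, the p-values of this fit are too small. Against them 138 of 476 rows passed, which is 29%, so calls were frequent. Of those, 44 were among the 60 calls against Control clones, in the same direction each time. They are 73.3% of the calls against Control clones and 31.9% of those against the other deletions. Both comparisons use the same linc1509 deletion clones, so overlap and shared direction are partly built in and are no independent check.

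Lmo2 averaged 26.96 ± 5.98 CPM in linc1509 deletion clones and 90.4 ± 31.5 CPM in the 62 others (SD), a log2 fold change of -1.85 ± 0.23 (adjusted p 1.80e-09 in edgeR). Only 2 of the 62 lay below the highest linc1509 deletion clone. Fbxo3 averaged 1192.5 ± 76.9 CPM in linc1509 deletion clones and 690.9 ± 153.7 CPM in the 62 others, a log2 fold change of 0.68 ± 0.12 (adjusted p 2.71e-06). Of the 18 neighbours 8 passed against this reference, where 29% of all rows passed, and 3 against Control clones, where 12.7% did. Of the 8, 5 were lower. Hipk3 was one of them, at -0.54 ± 0.14 (adjusted p 0.0017 in edgeR), with 204.45 CPM in linc1509 deletion clones and 277.8 CPM in the others. The remaining ones were Nat10 (-0.21), Caprin1 (-0.18), Tcp11l1 (-1.08), Depdc7 (0.41) and Ccdc73 (0.39). Of the 8, Hipk3, Tcp11l1 and Depdc7 lie within 200 kb of linc1509.

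The 8 groups can also be set against the same 77 Control clones, which they share with the linc1509 comparison. Lmo2 then had log2 fold changes from -0.39 to 0.29 and passed in none of the 8, beside -1.79 in the linc1509 clones. Fbxo3 had -0.63 to 0.13 and was called lower in 3, beside 0.52. linc1509 itself had -0.41 to 0.05 and was called lower in 1, the linc2025 deletion. In these groups 18.1% to 52.01% of rows passed. A further group with a target on chromosome 2, the Snhg17 deletion, had Lmo2 higher at 1.11 ± 0.27 (adjusted p 0.0040 in edgeR, 5 clones), with 29.5% of its rows called.

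The allele test of the series could be made in 2 clones, numbers 2 and 6. For each row the log2 ratio of the allele with less linc1509 over the other allele was compared with that ratio in Control clones, in 1 edgeR fit with a block for each clone. The other 5 clones have no such side, and linc1509 chose the sides and was left out. Of 431 rows 0 passed (0%), with 5 at an unadjusted p under 0.05, and 0 of the 17 neighbours tested passed, with 0 at an unadjusted p under 0.05. With clones permuted in place of the fit, 0 of 425 rows passed and 3 had an unadjusted p under 0.05. Only 3081 splits exist, so a row alone could not reach a p small enough to pass among 425. The 0 of this permutation is therefore no check of the fit. An unsigned permutation of the absolute deviation, over all deletion clones with enough counts, gave 0 of 431 rows passed and 27 with an unadjusted p under 0.05. Abtb2 (p = 0.0178) and Nat10 (p = 0.0362) were among the 27, both with an adjusted p of 0.623. With 2 clones, small allele shifts are beyond the reach of this test.

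Lmo2 was below the Control median of the same allele on both chromosomes of both clones. Clone 2 had 4 counts of Lmo2 on the allele with less linc1509 and 24 on the other, which are 14.5% and 41.6% of the Control medians of those alleles. Clone 6 had 28 and 12 counts, or 35.4% and 31.7%. The allele shift was -0.43 ± 0.57 (log2, SE; adjusted p 0.999 in edgeR), and it was 0.24 without clone 2 and -1.58 without clone 6. At these counts a shift of either sign could not be detected. Summed over the 7 clones, the first allele column held 64 counts of Lmo2 and the second 184, so 25.8% were in the first, against 34.2% in Control clones. By column, Lmo2 was lower on each: -2.16 in the first (adjusted p 5.69e-05) and -1.63 in the second (adjusted p 1.37e-04 in edgeR), where the levels were fitted separately.

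Fbxo3 was above the Control median on both chromosomes by about the same share. In clone 2 the allele with less linc1509 was at 138.6% and the other at 137.0% of the Control median. In clone 6 the shares were 156.3% and 154.4%. The allele shift was 0.02 ± 0.12, an estimate several times more precise than that of Lmo2. By column the log2 fold change of Fbxo3 was 0.50 in the first and 0.51 in the second.

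The genes within 200 kb showed no allele shift that passed the test. Cstf3 had a shift of 0.01 ± 0.08, Depdc7 of -0.11 ± 0.16, Qser1 of 0.17 ± 0.11 and D430041D05Rik, with few counts on 1 allele, of 0.42 ± 0.77. Hipk3 had -0.34 ± 0.22, and in clone 6 it was at 72.6% of the Control median on the allele with less linc1509 and 111.5% on the other, while clone 2 had 107.0% and 110.8%. Of the 17 neighbours, the ratio of 1 clone for Cstf3 lay outside its Control range. Median ratios per autosome lay from -0.29 to 0.09 in the 7 clones, inside the range of Control clones (-1.002 to 0.53). That range is pooled over autosomes, but each autosome also lay inside its own Control range. On chromosome 2 the ratios ran from -0.02 to 0.03, against -0.11 to 0.11 in Control clones. On the X they ran from 0.01 to 0.71, against -2.54 to 1.45.

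**Figure D4:**
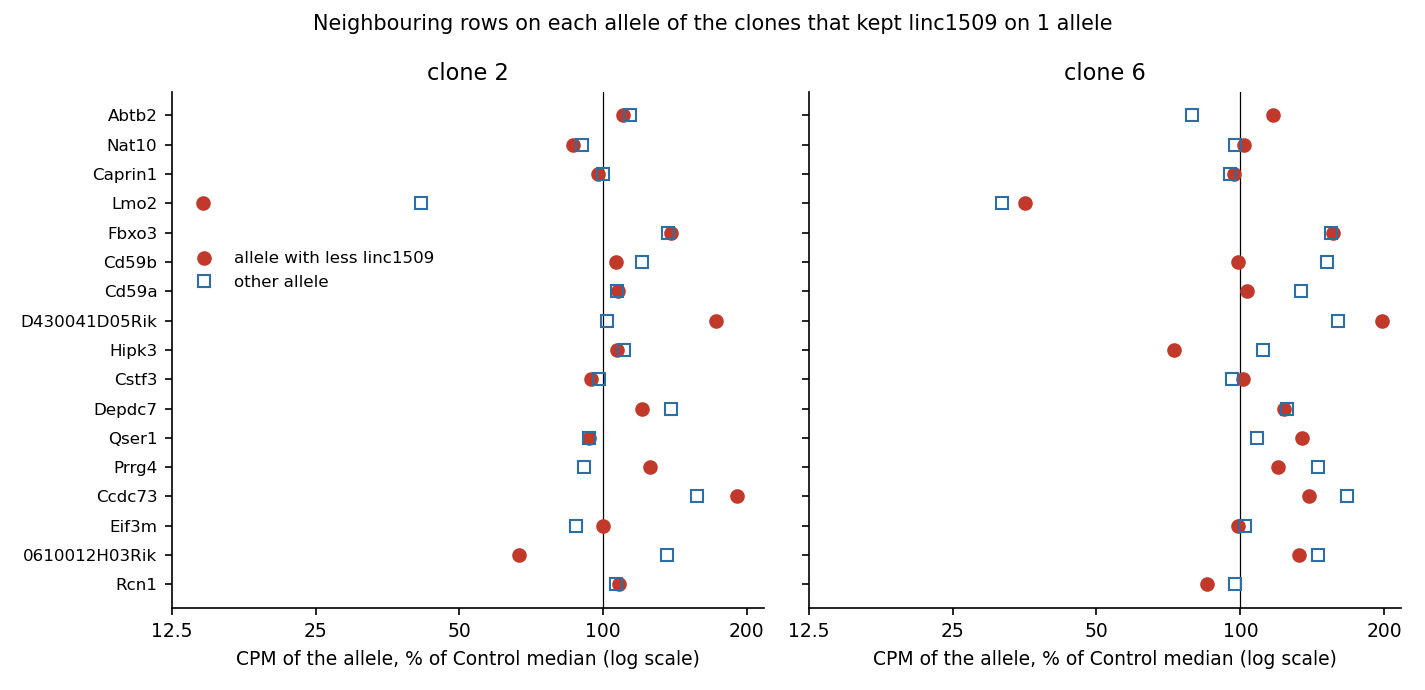
CPM of each allele as a percentage of the Control median of that allele (horizontal log axis) for the 17 neighbours tested, in clone 2 (left) and clone 6 (right), with the allele that has less linc1509 as red points and the other as open blue squares. Lmo2 lies at 14.5% and 41.6% in clone 2 and at 35.4% and 31.7% in clone 6, and the symbols of Fbxo3 nearly coincide above 100%.

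Outside the window 56 of 455 rows passed by total count, with changes up to 1.07 and down to -1.45 on the log2 scale. TMM scaling gave 26 higher and 34 lower among all 60 calls, whereas library size alone gave 49 higher and 18 lower of 67, so the balance of directions depends on the scaling. A minimum mean count of 50 gave 33 higher and 28 lower. Of the chromosomes with most captured rows, 11 had 13 of 112 rows called, 11 of them lower, and 15 had 14 of 142, 9 of them higher. Chromosome 2 had 7 of 35, linc1509 and the 3 called neighbours included, and chromosome 4 had 8 of 37. Over all rows 60 of 474 were called (12.7%). All these counts and directions are those with TMM scaling.

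Among the higher rows, Krt18, a keratin of simple epithelia, gave 1.07 ± 0.24, with 53.1 to 132.2 CPM in deletion clones and a median of 36.9 CPM in Control clones. Wscd2 gave 0.96 ± 0.26, with 584.8 to 1048 CPM in deletion clones and a median of 424.8 CPM in Control clones. Nrbp2, a pseudokinase gene, gave 0.80, Slc27a5, an acyl-CoA ligase of bile acid metabolism, 0.77, Selplg, the ligand of P-selectin, 0.75, and Parp10, a mono-ADP-ribosyltransferase, 0.75. Krt18, Wscd2 and Selplg did not pass against the other promoter deletions (0.77, 0.42 and 0.29). Among those 8 groups Wscd2 was called higher in 4 and lower in 3, and Selplg higher in 4. Krt18 was called higher in 1, the Rcc1 deletion (1.04), and lower in 1. Parp10 was called higher in 2 and lower in 1. Nrbp2 was called lower in 3 and Slc27a5 lower in 2, neither of them higher in any. Leaving out 1 clone ended the call of Selplg in 7 of 7 fits, of Slc27a5 in 5 and of Nrbp2 in 4.

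Among the lower rows, Tnni1, the troponin I of slow skeletal muscle, gave -1.45 ± 0.31 (adjusted p 0.0010 in edgeR). It had 122.0 to 187.1 CPM in deletion clones and 157.3 to 1361 CPM in Control clones, and 4 of the 7 clones lay below every Control clone. Tnni1 was also called lower in 4 of the 8 other deletion groups. Fgf18, a fibroblast growth factor, gave -1.22, Phf15, a PHD finger gene, -1.15, Tlx3, a homeobox factor of neuron specification, -0.98, Tigd5 -0.92 and Akp3, an alkaline phosphatase, -0.83. Against the other promoter deletions Fgf18 (-0.86) and Akp3 (-0.19) did not pass. Leaving out 1 clone ended the call of Akp3 in 7 of 7 fits and that of Phf15 in 6. In the 8 other groups Phf15 was called higher in 4 and lower in 3, with log2 fold changes from -1.60 to 1.24, and Akp3 was called lower in 4. Tlx3 was called higher in 1 of the 8 other groups and lower in none.

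Beside linc1509, the other row whose deletion and Control values did not overlap was Tti1, named after its values were seen (2 of 474 rows, 0.422%). Tti1, a partner of the Tel2 complex that stabilises kinases of the PIKK family, lies on chromosome 2 outside the window. It had 1832 to 2122 CPM in deletion clones and 298.5 to 1798 CPM in Control clones, a log2 fold change of 0.41 ± 0.11.

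**Figure D5:**
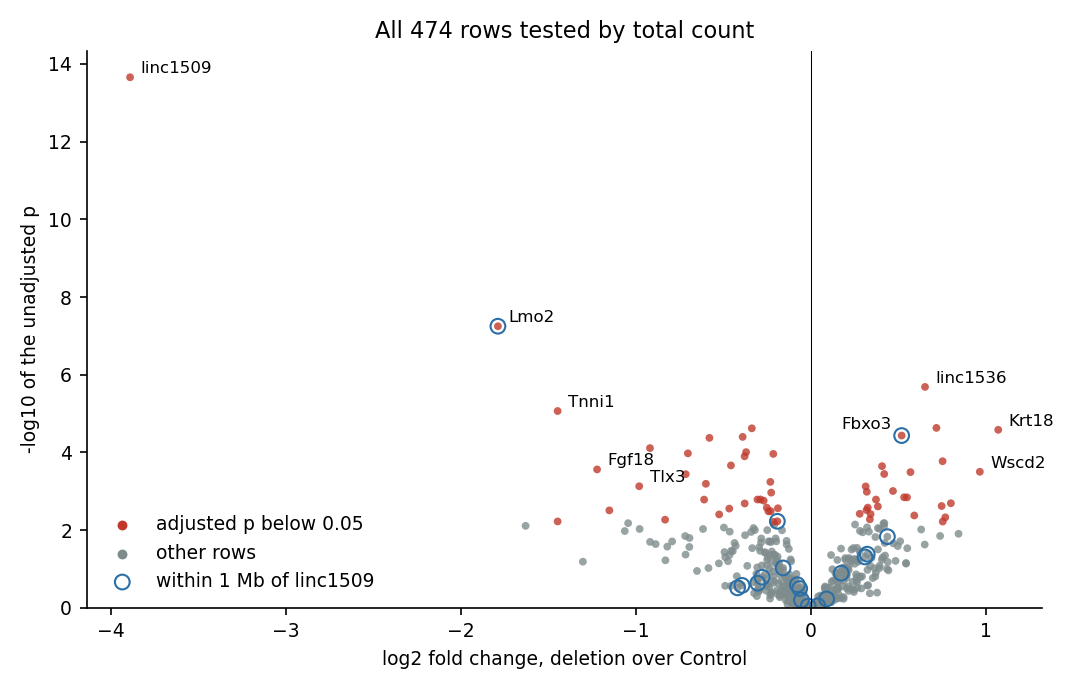
Log2 fold change, deletion over Control (horizontal axis), and -log10 of the unadjusted p in edgeR (vertical axis) of all 474 rows tested, red where the adjusted p is below 0.05 and ringed in blue within 1 Mb of linc1509. linc1509 at -3.89 and Lmo2 at -1.79 have the smallest p-values, and the other neighbours lie among the rest of the capture.

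The capture held few genes of the programmes one might ask about. None of 8 stem cell markers and none of 14 markers of other cell types was captured, so the label of an embryonic stem cell could not be checked. Of 22 pluripotency genes the capture held 1, Nr5a2, a nuclear receptor, which did not pass (-0.09, with 2426 to 2757 CPM in deletion clones and a median of 2548 CPM in Control clones). Of 31 lineage genes it held 3, of which 2 were tested and 1, Tnni1, was called, beside 12.7% of all rows. Of 12 genes of the Lmo2 complex and of blood, Lmo2 was the 1 captured, so its partners were not measured.

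Rows of other loci edited in the series were tested for 9 of 17, and 4 passed, beside 60 of 474 (12.7%) over all rows. linc1536 was higher at 0.65 ± 0.13 (adjusted p 3.25e-04 in edgeR), with 328.2 to 446.9 CPM in deletion clones and a median of 230.6 CPM in Control clones. Snhg3 (-0.29), linc1329 (-0.23) and Rcc1, the nucleotide exchange factor of Ran, (-0.22) were lower, and these 3 calls ended with library size alone. The call of linc1329 also ended against the other promoter deletions, a reference that holds clones deleted for Snhg3, Rcc1 and linc1536 themselves and so gives no check of those rows. Leaving out 1 clone also ended that of Rcc1 in 7 of 7 fits and those of Snhg3 and linc1329 in 2 each. Of 22 rows with a linc name other than linc1509, 17 were tested and 2 passed, linc1536 and linc1329, a share near the 12.7% over all rows. Their median log2 fold change was 0.09, beside -0.04 over all rows.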

How the data were processed

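The authors deposited whole-number counts per transcript and allele, in 2 columns, for poly(A)+ RNA libraries after hybrid selection, with coordinates of mm9, the build in the submitters' processing notes. How reads were aligned, counted, filtered and given to alleles is not given in the sources used here, nor is strand use, so antisense reads cannot be told apart. Reads that cover no strain difference are not in the counts. Of 692 rows 1 was dropped as a copy of another, and 667 of 691 names matched the name tables. The 23 PRO-seq, ATAC-seq and ChIP-seq samples were not analysed here.

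Total counts were fitted with edgeR 4.0.16 in R 4.3.3 (quasi-likelihood F test, TMM, rows with at least 10 counts a library on average, Benjamini-Hochberg adjustment), with each SE taken as the log2 fold change over the square root of F. The signed allele fit used rows with a mean of at least 20 allele counts, clones as a block, and a side where linc1509 had at least 20 counts and a log2 ratio (pseudocount 0.5) at least 1 from the Control median. Permutation tests were two-sided and exact for 2 clones (3081 splits), otherwise with 100000 resamples. Alternatives used DESeq2 1.42.0 and other scalings, filters and references. Both fits were also run on simulated data, but no outcome is reported here and no result rests on it. Named rows were linc1509, the rows within 1 Mb, up to 6 higher and 6 lower calls outside by size with all 7 clones on 1 side of the Control median, and called list members. Members, rule and lists were chosen with earlier results of these data known. Python 3.11.15, NumPy 2.4.6 and SciPy 1.17.1 were used.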

Additional observations from a re-analysis of the deposited data

Results flagged for a closer look

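Fgf18, a fibroblast growth factor gene that passed as lower in deletion clones, had 1 clone far from the other 6. Clone 3 had 11.8 CPM and the nearest clone 6.97 CPM, a gap of 0.619 of the range of the 7 clones. Clone 3 is still below the Control median of 12.6 CPM. The same check was made on 31 sets of 7 values, and chance alone marks about 1 set in 20.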

How the results depend on the processing

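The falls of linc1509 and Lmo2 and the rise of Fbxo3 kept their direction in all alternatives run. Their calls held too, except that Lmo2 and Fbxo3 lost theirs when the 7 deletion clones were summed to 1 library. No result reversed. Over named rows, 628 refits of total counts gave 92 lost calls, 9 gained calls and 15 sign changes without a call. The 132 refits of the allele shift gave no call, but in the signed permutations among them a row alone could not be called. The number of rows called was 60. It was 99 with Control clones summed by plate, 138 against other promoter deletions, 96 with Control clones of at least 500000 counts, 1 with deletion clones as 1 library, and 30 to 45 without 1 clone, where clones 1, 3, 6 and 7 took it to 32, 37, 30 and 37. The 3 neighbours called became 5, 8 and 5 under the first 3 of those references and 2 without any 1 clone. Under these references calls over all rows rose too, from 60 of 474 to 99 of 506, 138 of 476 and 96 of 481. None of the 3 neighbours called in the main fit lies within 200 kb. There D430041D05Rik was called with plate sums and with Control clones of at least 500000 counts (adjusted p 0.0231 and 0.0419 in edgeR). Hipk3, Tcp11l1 and Depdc7 were called against other promoter deletions. In the signed allele fit, 1 row, Sult4a1, was called with an added unsigned term or without clone 6, so the range without 1 clone was 0 to 1. The 2 linc-named calls became 1 with library size alone or Control clones of any date, 0 with 1 library, and 1 to 2 without 1 clone. The 4 calls at other edited loci became 1 with library size alone, 2 with Control clones of any date, 1 against other deletions (a reference that includes clones deleted at 3 of these loci, so no check of them), 0 with 1 library, and 1 to 3 without 1 clone. The 1 lineage call became 2 with plate sums and 0 with 1 library. The reference of Control clones of any date held 86 clones, the 77 of the main fit and 9 of other dates. It is thus largely the main reference. The minimum of 500000 counts, the sum to 1 library, the fits by column and DESeq2 without replacement were chosen after seeing the data. The cause was not tested. No paired analysis was possible because the clone numbers follow accession order and pair no samples. Depth limits the rows with few counts, per allele most of all.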
